A study of Homo sapiens with 24 samples.

Results

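The 8 genes described here control or serve the cell's sterol supply: INSIG1, INSIG2, SREBF1, SREBF2, HMGCS1, SQLE, SCARB1 and IDI1. They were taken by gene symbol from the 23106 genes of each count table, and each symbol was found once in each of the 24 libraries. The libraries hold polyadenylated RNA of 4 cancer cell lines, A549 (lung), HCT-116 (colorectal), PC3 (prostate) and T47D (breast), with 3 replicates in 21% oxygen (normoxia) and 3 in 0.5% oxygen for 16 h (hypoxia). All cells grew with 10% serum, a source of lipoprotein cholesterol, but A549 and PC3 cells grew in F12K medium, HCT-116 cells in McCoy's 5a and T47D cells in DMEM, so that line and medium cannot be told apart, except between A549 and PC3 cells. Each line stands for its tissue by 1 established culture. The labels do not say whether the replicates were separate cultures, so that p values measure the spread between these libraries, which may be technical.

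Cells set their cholesterol by feedback. SREBF1 and SREBF2 encode the sterol regulatory element-binding proteins, transcription factors that are made as precursors in the membrane of the endoplasmic reticulum, bound to the escort protein SCAP. When sterols are plentiful, the proteins encoded by INSIG1 and INSIG2 hold SCAP and the precursor in that membrane. When sterols run low, the precursor travels to the Golgi, where the site-1 and site-2 proteases release the active factor, which then switches on genes for cholesterol synthesis and uptake, INSIG1 among them. HMGCS1 (HMG-CoA synthase), IDI1 (isopentenyl diphosphate isomerase) and SQLE (squalene epoxidase) encode enzymes of the pathway, and SQLE consumes molecular oxygen in its reaction. SCARB1 encodes the receptor SR-B1, which takes up cholesteryl ester from high-density lipoprotein.

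Between 22698584 and 62850747 fragments were counted per library, and the lowest count of any of the 8 genes in any library was 593 (INSIG1 in PC3 cells, normoxia replicate 1), so that counting error was at most a few percent of a level, near the spread of replicates in the tightest groups (INSIG2 in hypoxic T47D and SREBF2 in hypoxic PC3 cells). Of the markers of each tissue of origin, 0 of 5 lung genes exceeded 1 CPM (the count scaled to the library's size) in A549 cells, 1 of 6 colorectal genes (CDX2) in HCT-116 cells, 3 of 6 prostate genes (HOXB13 and TMPRSS2 among them, but not KLK3) in PC3 cells and 5 of 5 luminal breast genes in T47D cells. Of 6 blood and endothelial genes, CD68 exceeded 1 CPM in all 4 lines and PECAM1 in PC3 cells. CD68 rose in hypoxia in A549 (log2 fold change 0.56) and HCT-116 cells (2.22), the summed level of the 6 genes going from 20.1 to 29.6 CPM in normoxia to 35.5 to 38.4 CPM in hypoxia in A549 cells and from 5.59 to 6.07 CPM to 15.8 to 41.1 CPM in HCT-116 cells, whereas PTPRC, CD3E, CD79A and VWF stayed under 1 CPM. The part of these genes in the results was not tested. In whole-culture RNA, fewer cells of a kind and less RNA per cell cannot be told apart.

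Promoter sequences of 3 genes that rose in all 4 lines and of HMGCS1, which rose in 1, are shown because they carry letters known from sterol and oxygen control. RefSeq (GRCh38.p14) gave 10 windows, each 250 bases before to 50 after an annotated start, for 6 of the 8 genes: INSIG1, INSIG2, SREBF1, SREBF2, HMGCS1 and IDI1. Both strands were searched for CACCCCAC, the core of the sterol regulatory element. They were also searched for CCAAT, the box bound by the SREBP partner NF-Y, and for the E-box, written CACGTG. The core of the hypoxia response element was searched as ACGTG, which also lies within the E-box so that those matches overlap, and in its other form as GCGTG. In the stretches before the start that follow, written 5′ to 3′ on the gene's strand, capitals mark the hypoxia response core, E-box and CCAAT box (or their reverse complements) in INSIG1 and INSIG2, the sterol regulatory core and the CCAAT box in SREBF2, and the CCAAT box in HMGCS1.
INSIG1 (chr7:155297658-155297837, plus strand): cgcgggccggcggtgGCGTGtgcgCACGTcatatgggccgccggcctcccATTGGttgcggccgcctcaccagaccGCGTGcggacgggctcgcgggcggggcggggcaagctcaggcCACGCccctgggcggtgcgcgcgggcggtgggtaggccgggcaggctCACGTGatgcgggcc
INSIG2 (chr2:118088301-118088400, plus strand): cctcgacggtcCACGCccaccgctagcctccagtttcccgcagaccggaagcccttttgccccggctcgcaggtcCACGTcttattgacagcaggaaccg
SREBF2 (chr22:41832955-41833044, plus strand): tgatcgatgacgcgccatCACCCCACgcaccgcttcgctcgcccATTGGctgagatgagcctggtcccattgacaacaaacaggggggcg
HMGCS1 (chr5:43313483-43313582, minus strand): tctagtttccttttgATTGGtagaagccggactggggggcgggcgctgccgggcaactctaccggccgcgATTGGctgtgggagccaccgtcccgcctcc

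CACCCCAC stood in the SREBF2 window alone among the 10, 132 bases before the start, and occurs in 2.79% of the 35116 promoter windows of RefSeq. INSIG1 held the E-box CACGTG 55 bases before its start, a motif in 7.26% of all windows. The hypoxia core ACGTG stood in the windows of INSIG1 and INSIG2 and occurs in 21.4% of all windows. Its form GCGTG, which 36.5% of all windows hold, stood in at least 1 window of each of the 6 genes but SREBF1, and in SREBF2 that match overlaps the end of the sterol regulatory core. The CCAAT box, held by 34.6% of all windows, stood in INSIG1, SREBF2, HMGCS1 and IDI1. A match of letters is a description and not evidence of binding.

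Hypoxia was first compared with normoxia within each line by edgeR's quasi-likelihood test, and a gene was called where the Benjamini-Hochberg adjusted p was under 0.05 and the fold change over 1.2. All 8 genes passed the filter on low counts in each line. Of them, 5 were higher in A549 cells, where 17.6% of all genes tested were higher and 17.8% were lower. In HCT-116 cells, 7 were higher, against 23.3% of all genes higher and 27.0% lower. In PC3 cells, 4 were higher, against 16.6% of all genes higher and 15.7% lower, and in T47D cells 6 were higher, against 6.55% of all genes higher and 6.69% lower. None of the 8 was called lower in any line by edgeR, by DESeq2 or at an unadjusted p under 0.05. Over the 8 genes, the log2 fold change had a median of 0.78 in A549, 1.13 in HCT-116, 0.38 in PC3 and 1.06 in T47D cells, and the median over all genes tested lay between -0.03 and -0.01.

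**Figure D1:**
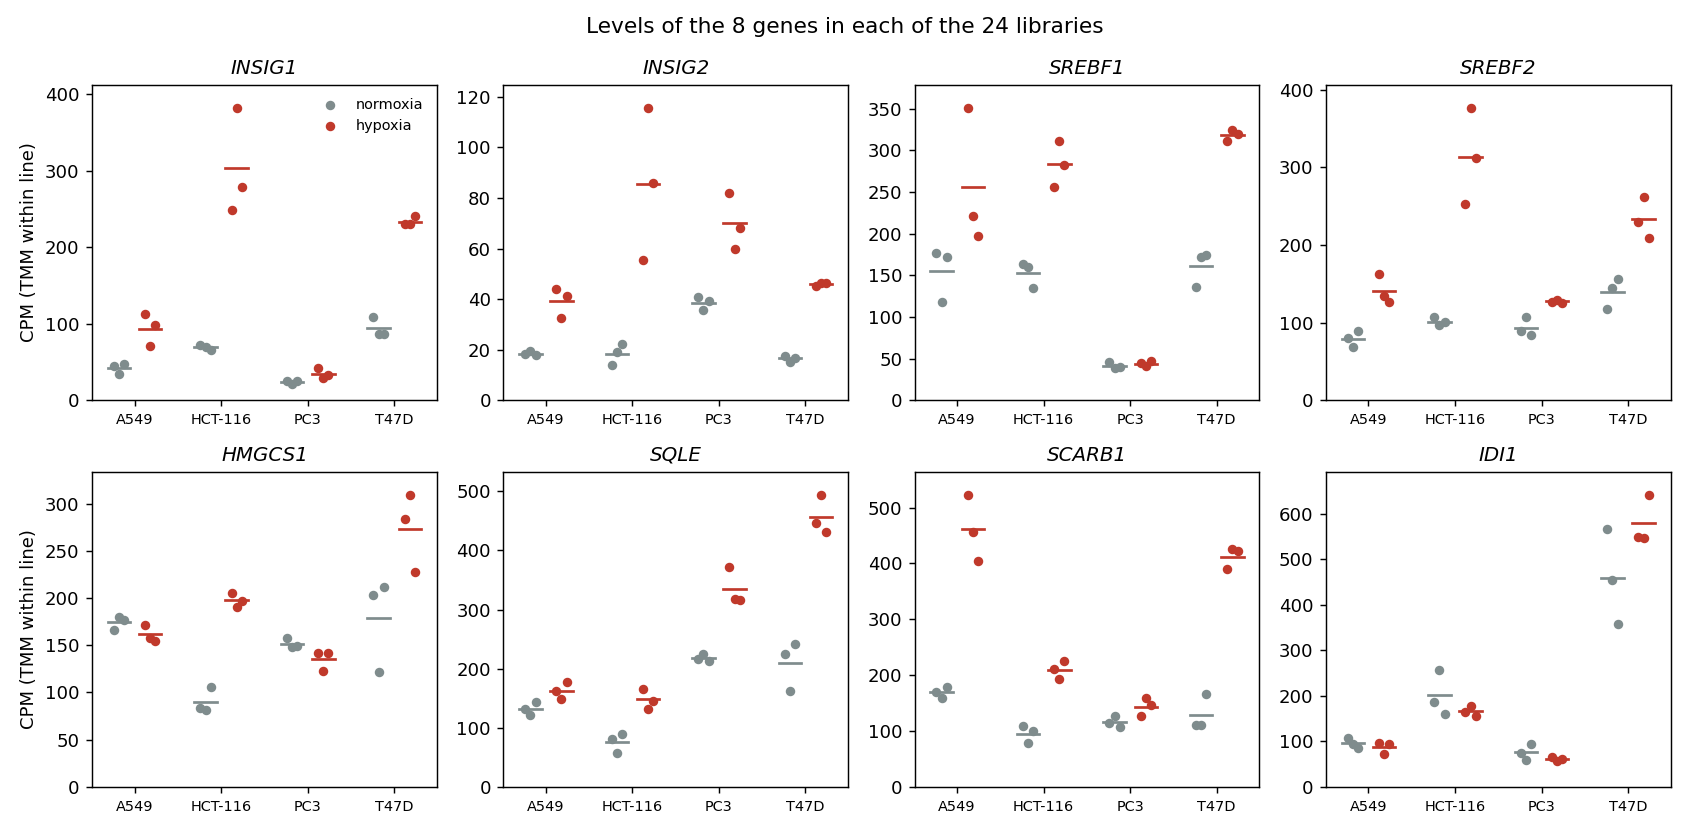
Level of each gene in each library, in CPM with TMM scaling within the line, by line, with normoxia in grey and hypoxia in red. Points are the 3 libraries of a group and the short line is their mean. The hypoxic libraries of INSIG1, INSIG2 and SREBF2 sit above the normoxic ones in each of the 4 lines, and those of IDI1 in none.

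INSIG1 (chr7:155089486-155101945, GRCh37, plus strand, 6 exons in the principal transcript) was higher in hypoxia in all 4 lines. In HCT-116 cells, replicates 1 to 3 held 71.7, 69.7 and 65.5 CPM in normoxia and 249, 382 and 278 CPM in hypoxia, a 4.39-fold increase (log2 fold change 2.14, SE 0.22, adjusted p = 4.52e-05, edgeR). In T47D cells, it went from 109, 87.0 and 86.3 CPM to 230, 230 and 240 CPM (2.49-fold, log2 1.31, SE 0.20, adjusted p = 0.00171, edgeR). The lowest hypoxic library exceeded the highest normoxic one by over 2-fold in both of these lines. A549 cells went from 44.4, 34.6 and 46.8 CPM to 112, 70.4 and 98 CPM (2.23-fold, log2 1.16, SE 0.17, adjusted p = 0.000491, edgeR). PC3 cells, the line with the lowest values, went from 25.4, 20.9 and 24.4 CPM to 42.1, 28.9 and 33.3 CPM (1.48-fold, log2 0.56, SE 0.14, adjusted p = 0.0163, edgeR). The groups did not overlap in any of the 4 lines, but the PC3 call rested on hypoxia replicate 1, the highest of its group, without which the log2 fold change was 0.41 with an adjusted p of 0.0573 (edgeR).

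INSIG2 (chr2:118846028-118868573, GRCh37, plus strand, 6 exons) encodes the second INSIG protein, and it was also higher in hypoxia in all 4 lines. HCT-116 cells held 13.96, 19.2 and 22.2 CPM in normoxia and 55.5, 116 and 86.0 CPM in hypoxia, a 4.64-fold increase (log2 2.22, SE 0.27, adjusted p = 0.000105, edgeR). T47D cells went from 17.4, 15.2 and 16.9 CPM to 45.0, 46.3 and 46.4 CPM (2.79-fold, log2 1.48, SE 0.18, adjusted p = 0.000391, edgeR). The hypoxic libraries were spread over 55.5 to 116 CPM in HCT-116 cells and over 45.0 to 46.4 CPM in T47D cells. A549 cells went from 18.2, 19.4 and 17.7 CPM to 43.8, 32.4 and 41.3 CPM (2.12-fold, log2 1.09, SE 0.13, adjusted p = 0.00012, edgeR). In PC3 cells, where INSIG2 was highest in normoxia, it went from 40.7, 35.5 and 39.2 CPM to 81.9, 59.8 and 68.2 CPM (1.82-fold, log2 0.86, SE 0.12, adjusted p = 0.00215, edgeR). No groups overlapped, and the call held in each line under all 15 alternatives run.

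SREBF2 (chr22:42229109-42303310, GRCh37, plus strand, 19 exons) encodes SREBP2, the factor that mainly drives cholesterol genes, and it was higher in all 4 lines. HCT-116 cells held 107, 96.7 and 100 CPM in normoxia and 253, 376 and 312 CPM in hypoxia, a 3.10-fold increase (log2 1.63, SE 0.21, adjusted p = 0.000131, edgeR). A549 cells went from 80.0, 68.4 and 89.7 CPM to 163, 135 and 127 CPM (1.78-fold, log2 0.83, SE 0.13, adjusted p = 0.000824, edgeR). The 3 hypoxic libraries were above all normoxic libraries in both lines, and the calls held under all 15 alternatives. T47D cells went from 117, 145 and 156 CPM to 230, 262 and 209 CPM (1.68-fold, log2 0.75, SE 0.21, adjusted p = 0.0351, edgeR). PC3 cells went from 89.6, 107 and 83.8 CPM to 127, 129 and 125 CPM (1.36-fold, log2 0.45, SE 0.10, adjusted p = 0.0117, edgeR). These groups did not overlap either, but both calls sat near the threshold. In T47D cells the adjusted p of edgeR was 0.196 without normoxia replicate 1, 0.103 without normoxia replicate 2, 0.105 without hypoxia replicate 1, 0.141 without hypoxia replicate 2 and 0.0564 under scaling to library totals, and in PC3 cells it was 0.0532 without normoxia replicate 1, 0.0505 without hypoxia replicate 2 and 0.068 in a fit of all 24 libraries.

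SREBF1 (chr17:17713713-17740316, GRCh37, minus strand, 19 exons) encodes the SREBP1 isoforms, which mainly drive genes of fatty acid synthesis, and it was higher in 3 lines. T47D cells held 136, 173 and 174 CPM in normoxia and 311, 325 and 320 CPM in hypoxia (1.98-fold, log2 0.99, SE 0.21, adjusted p = 0.0109, edgeR). HCT-116 cells went from 163, 160 and 135 CPM to 256, 311 and 283 CPM (1.86-fold, log2 0.89, SE 0.20, adjusted p = 0.00225, edgeR). In both lines all hypoxic libraries were above all normoxic ones, and the T47D call was lost without normoxia replicate 1 (log2 0.88, adjusted p = 0.105, edgeR). A549 cells went from 177, 118 and 172 CPM to 351, 221 and 197 CPM (1.65-fold, log2 0.72, SE 0.21, adjusted p = 0.0184, edgeR). In PC3 cells SREBF1 was at 45.5, 38.3 and 40.1 CPM in normoxia and 44.1, 40.8 and 46.96 CPM in hypoxia, and the groups overlapped (log2 0.09, SE 0.10, adjusted p = 0.516, edgeR). The A549 value rested on hypoxia replicate 1 at 351 CPM and normoxia replicate 2 at 118 CPM, with a log2 fold change of 0.44 (adjusted p = 0.0657, edgeR) without the first and of 0.55 (adjusted p = 0.0763, edgeR) without the second.

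SQLE (chr8:126010739-126034525, GRCh37, plus strand, 11 exons) was called higher in 3 lines. T47D cells held 224, 162 and 241 CPM in normoxia and 446, 494 and 431 CPM in hypoxia (2.19-fold, log2 1.13, SE 0.23, adjusted p = 0.00894, edgeR). HCT-116 cells went from 80.5, 58.1 and 89.3 CPM to 166, 132 and 146 CPM (1.95-fold, log2 0.96, SE 0.21, adjusted p = 0.00226, edgeR). In T47D cells the adjusted p of edgeR was 0.0779 without normoxia replicate 1 and 0.0517 without normoxia replicate 2, the lowest of its group. PC3 cells, with narrower groups, went from 217, 225 and 213 CPM to 372, 318 and 316 CPM (1.54-fold, log2 0.62, SE 0.10, adjusted p = 0.00308, edgeR). In A549 cells SQLE was at 131, 122 and 144 CPM in normoxia and 162, 149 and 178 CPM in hypoxia (1.23-fold, log2 0.30, SE 0.11, adjusted p = 0.0559, edgeR), which narrowly missed the threshold with groups that did not overlap. DESeq2 (adjusted p = 0.0378), a minimum mean count of 50 (0.0478, edgeR) and the fit without A549 normoxia replicate 3 (0.0297, edgeR) called it higher.

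HMGCS1 (chr5:43287572-43313614, GRCh37, minus strand, 11 exons) was called in HCT-116 cells and in no other line. There it went from 83.5, 81.7 and 105 CPM to 206, 190 and 196 CPM (2.19-fold, log2 1.13, SE 0.19, adjusted p = 0.000476, edgeR). T47D cells held 204, 121 and 211 CPM in normoxia and 284, 309 and 228 CPM in hypoxia (1.53-fold, log2 0.61, SE 0.25, adjusted p = 0.116, edgeR). These T47D groups did not overlap, and the gene was called there in a fit of all 24 libraries (log2 0.69, adjusted p = 0.00612, edgeR). A549 cells held 166, 180 and 176 CPM in normoxia and 172, 158 and 155 CPM in hypoxia (log2 -0.11, SE 0.10, adjusted p = 0.433, edgeR), with overlapping groups. PC3 cells held 158, 148 and 150 CPM in normoxia and 142, 122 and 142 CPM in hypoxia (log2 -0.16, SE 0.09, adjusted p = 0.198, edgeR), with the hypoxic libraries below the normoxic ones but short of the threshold. HMGCS1 shares 46.7% of its transcript with a noncoding gene on the opposite strand (ENSG00000261604), and the counting's strand setting is not given in the sources used here, so that its counts are uncertain to that extent. The like share was 2.45% to 6.32% in SREBF1, SREBF2, SCARB1 and IDI1.

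IDI1 (chr10:1085092-1095059, GRCh37, minus strand, 5 exons) was called in none of the 4 lines. It was at 106, 94.7 and 86.2 CPM in normoxia and 96.4, 73.1 and 94.3 CPM in hypoxia in A549 cells (log2 -0.12, SE 0.13, adjusted p = 0.489, edgeR). HCT-116 cells held 187, 258 and 160 CPM in normoxia and 164, 177 and 156 CPM in hypoxia (log2 -0.28, SE 0.21, adjusted p = 0.286, edgeR). The normoxic libraries of HCT-116 cells alone spanned a wider range than the difference between the groups. PC3 cells held 74.5, 59.3 and 95.1 CPM in normoxia and 65.6, 57.6 and 61.9 CPM in hypoxia (log2 -0.31, SE 0.15, adjusted p = 0.142, edgeR). T47D cells held 567, 453 and 359 CPM in normoxia and 550, 547 and 641 CPM in hypoxia (log2 0.33, SE 0.24, adjusted p = 0.362, edgeR). The groups overlapped in each line, and the gene was called lower in PC3 cells without normoxia replicate 2 (log2 -0.46, adjusted p = 0.0114, edgeR). The annotation names 3 processed pseudogenes of IDI1, and the authors kept uniquely placed fragments, so that fragments alike in gene and copies are missing from its counts.

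SCARB1 (chr12:125261402-125367214, GRCh37, minus strand, 13 exons) was higher in 3 lines. A549 cells went from 169, 160 and 179 CPM to 523, 457 and 404 CPM (2.72-fold, log2 1.44, SE 0.12, adjusted p = 8.46e-06, edgeR), the smallest adjusted p of any of the 8 genes in any line. T47D cells went from 110, 111 and 166 CPM to 390, 425 and 422 CPM (3.19-fold, log2 1.67, SE 0.23, adjusted p = 0.000893, edgeR). In both lines each hypoxic library held more than 2-fold the CPM of the highest normoxic one. HCT-116 cells went from 109, 77.9 and 99.4 CPM to 212, 194 and 225 CPM (2.20-fold, log2 1.14, SE 0.20, adjusted p = 0.000571, edgeR). PC3 cells held 115, 127 and 106 CPM in normoxia and 127, 159 and 146 CPM in hypoxia (1.24-fold, log2 0.31, SE 0.11, adjusted p = 0.0564, edgeR). The PC3 groups overlapped narrowly at 127 CPM, and the gene was called higher there by DESeq2 (adjusted p = 0.0386), with the replicate block (0.0434, edgeR), without normoxia replicate 2 (0.0236, edgeR) and without hypoxia replicate 1 (0.0487, edgeR).

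**Figure D2:**
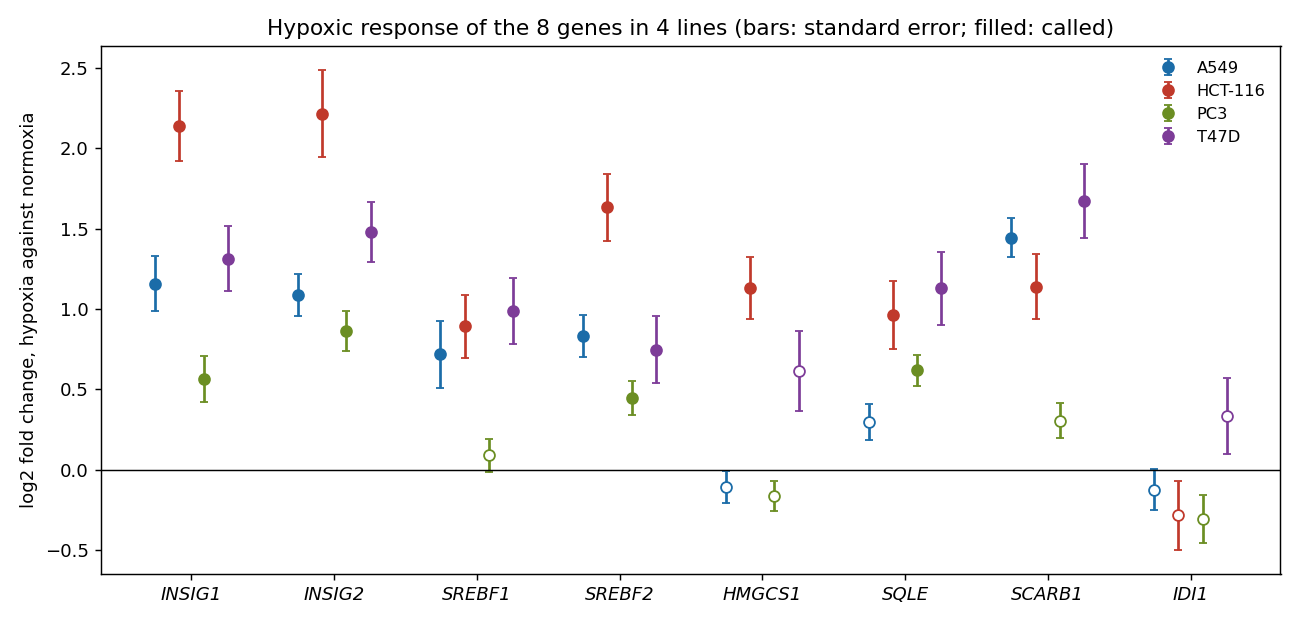
Log2 fold change of hypoxia against normoxia for each gene (x axis) in each line (colour), with the standard error as bars and filled points where the gene was called. HCT-116 cells have the highest points for INSIG1, INSIG2, SREBF2 and HMGCS1, T47D cells for SREBF1, SQLE, SCARB1 and IDI1, and PC3 cells the lowest for INSIG1, INSIG2, SREBF1, SREBF2, HMGCS1, SCARB1 and IDI1.

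The second comparison asked whether the size of the response differed between lines, as the interaction of line and oxygen in an edgeR fit of all 24 libraries. It differed for 7 of the 8 genes, the exception being IDI1 (adjusted p = 0.15), where 18.3% of all genes tested passed. The adjusted p of edgeR was 0.00103 for INSIG1, 0.0011 for HMGCS1, 0.00225 for SCARB1, 0.0044 for SREBF2, 0.00613 for INSIG2, 0.0307 for SQLE and 0.0375 for SREBF1. INSIG1, INSIG2, SREBF2, HMGCS1 and SCARB1 passed under every alternative run at 0.05, whereas SQLE and SREBF1 each missed the threshold without a low-count filter (0.0568 and 0.0534), under library totals alone (0.0583 and 0.0633) and without 16 and 15 of the 24 libraries left out singly, at up to 0.108 and 0.132 (without A549 normoxia replicate 3 and PC3 normoxia replicate 1).

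The line pairs share libraries, so their differences are not independent. HCT-116 cells responded more than PC3 cells in 6 of the 8 genes, where 14.9% of all genes differed in response. For INSIG1 the difference was 1.65 (SE 0.26, adjusted p = 0.000294) on the log2 scale, with 2.14 in HCT-116 against 0.56 in PC3 cells in the fits of each line. The other 5 were INSIG2, SREBF1, SREBF2, HMGCS1 and SCARB1, with adjusted p values of edgeR from 0.00143 to 0.0259. HCT-116 and A549 cells differed in 5 genes (16.7% of all genes), INSIG1, INSIG2, SREBF2, HMGCS1 and SQLE, each with the higher value in HCT-116 cells. HMGCS1 differed most between them, by 1.35 (SE 0.25, adjusted p = 0.00172, edgeR). T47D and HCT-116 cells differed in 2 genes (9.07% of all genes), with INSIG1 lower by 0.86 (SE 0.25, adjusted p = 0.034) and SREBF2 lower by 0.93 (SE 0.24, adjusted p = 0.0178, edgeR) in T47D cells.

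SCARB1, the lipoprotein receptor, differed in response between PC3 cells and each of the other lines, by 0.90 from HCT-116 cells (SE 0.24, adjusted p = 0.016, edgeR), where PC3 cells had the lower value. Its response was lower by 1.09 in PC3 than in A549 cells (SE 0.24, adjusted p = 0.0281, edgeR), the single gene of the 8 to differ between those lines, where 0.758% of all genes did. It was higher by 1.39 in T47D than in PC3 cells (SE 0.24, adjusted p = 0.00156, edgeR), again the single gene, with 2.25% of all genes. Between T47D and A549 cells SQLE differed, higher by 0.90 in T47D cells (SE 0.24, adjusted p = 0.0479, edgeR), where 2.11% of all genes passed. The INSIG1 response was not shown to differ between A549, T47D and PC3 cells in any pair, with differences of 0.23 (SE 0.25) for T47D over A549, -0.55 (SE 0.25) for PC3 over A549 and 0.78 (SE 0.25) for T47D over PC3 cells.

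**Figure D3:**
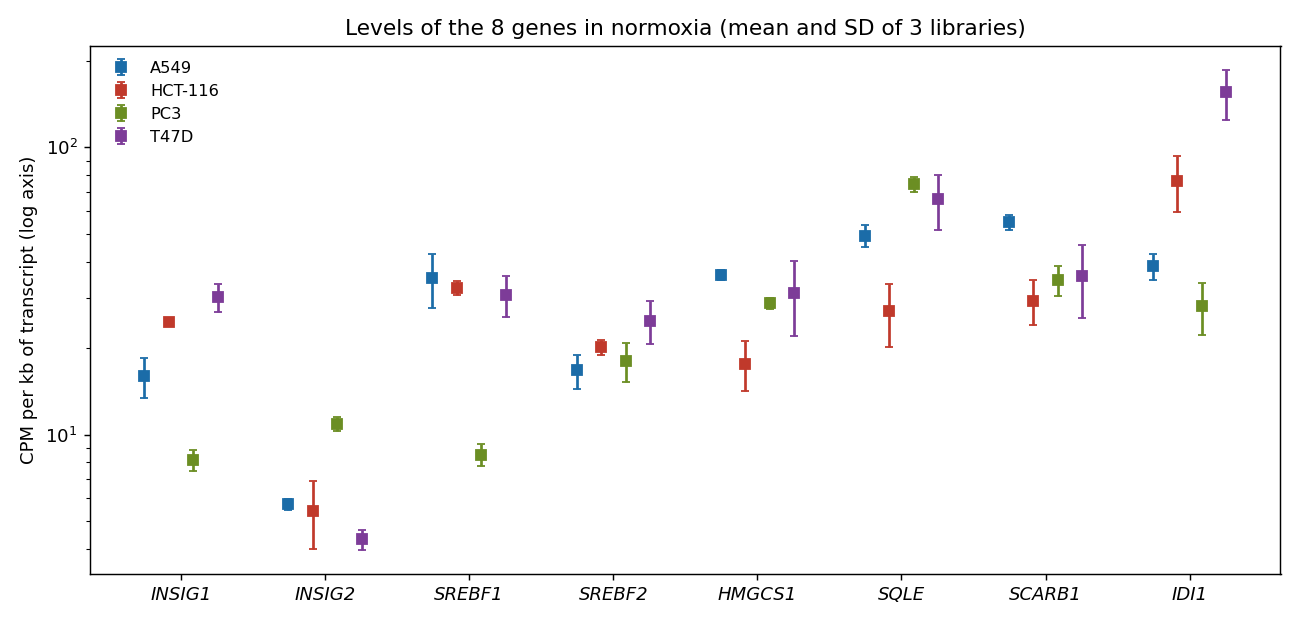
Level of each gene in normoxia in CPM per kb of its principal transcript, on a log axis, scaled over the 12 normoxic libraries. Squares are means of 3 libraries and bars the SD. IDI1 in T47D cells is the highest level at 156 CPM per kb, and INSIG2 in T47D cells the lowest at 4.31.

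The third comparison set the lines side by side in normoxia, with the 12 normoxic libraries on a common scale and levels divided by the length of the principal transcript. All 8 genes differed between lines (adjusted p from 3.68e-08 for IDI1 to 0.0228 for SREBF2, edgeR), as did 93.5% of all genes tested, so that this count is near the background. The differences numbered 5 of 8 genes between A549 and HCT-116 cells (64.9% of all genes), 5 between A549 and PC3 (60.0%), 4 between A549 and T47D (66.6%), 6 between HCT-116 and PC3 (65.6%), 3 between HCT-116 and T47D (68.5%) and 5 between PC3 and T47D cells (67.8%). A share of 8 genes moves in coarse steps, so small gaps between these counts and the shares of all genes are not read as differences. The widest gap was between HCT-116 and T47D cells, where 3 of 8 genes lay below the 68.5% of all genes. Whether any of these shares departs from that of all genes was not tested.

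INSIG1 was at 30.0 ± 3.35 CPM per kb (SD, n = 3) in T47D, 24.7 ± 0.311 in HCT-116, 15.9 ± 2.47 in A549 and 8.17 ± 0.674 in PC3 cells, and the top pair of this order was not shown to differ (adjusted p = 0.108, edgeR). INSIG2 ran the other way, at 10.9 ± 0.606 in PC3, 5.71 ± 0.253 in A549, 5.43 ± 1.44 in HCT-116 and 4.31 ± 0.339 CPM per kb in T47D cells. PC3 cells exceeded each of the others in INSIG2, and no other neighbours in that order passed the test (adjusted p = 0.742 and 0.107, edgeR). SREBF1 was at 8.51 ± 0.754 CPM per kb in PC3 cells against 30.6 ± 4.93 in T47D, 32.4 ± 1.86 in HCT-116 and 35.1 ± 7.49 in A549 cells, and no pair of the last 3 passed the test. SREBF2 spanned a narrow range from 16.7 ± 2.27 in A549 through 18.04 ± 2.81 in PC3 and 20.2 ± 1.24 in HCT-116 to 24.9 ± 4.26 CPM per kb in T47D cells, and no neighbours in this order passed the test. T47D cells exceeded A549 cells in SREBF2 (adjusted p = 0.00777, edgeR), as well as PC3 cells (0.0255). The difference of SREBF2 over the 4 lines was lost without A549 normoxia replicate 1 (adjusted p = 0.0512), T47D normoxia replicate 2 (0.062) or T47D normoxia replicate 3 (0.108, edgeR).

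Among the enzymes, IDI1 had the widest range, from 28.0 ± 5.80 CPM per kb (SD, n = 3) in PC3 and 38.6 ± 4.10 in A549 to 76.4 ± 16.8 in HCT-116 and 156 ± 30.6 in T47D cells. PC3 and A549 cells were not shown to differ in IDI1 (adjusted p = 0.0639, edgeR), and each further step passed the test. SQLE was at 74.5 ± 4.35 CPM per kb in PC3, 65.9 ± 14.5 in T47D, 49.3 ± 4.19 in A549 and 26.9 ± 6.64 in HCT-116 cells, and neither PC3 and T47D (adjusted p = 0.442) nor T47D and A549 cells (0.0739, edgeR) were shown to differ. HCT-116 cells were lowest in HMGCS1 as well, at 17.7 ± 3.46 against 28.6 ± 1.17 in PC3, 31.2 ± 9.13 in T47D and 35.9 ± 1.40 CPM per kb in A549 cells, and no pair of these 3 passed the test. SCARB1 was highest in A549 cells at 54.9 ± 3.21 CPM per kb, and T47D (35.6 ± 10.1), PC3 (34.6 ± 4.11) and HCT-116 cells (29.3 ± 5.18) were not shown to differ from each other.

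**Figure D4:**
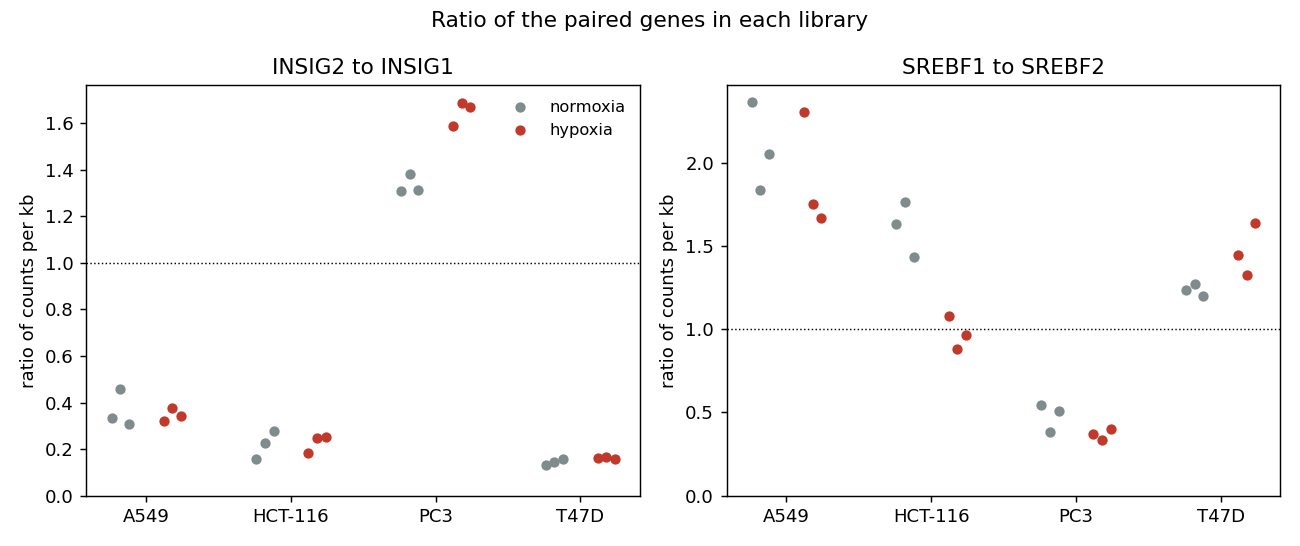
Ratio of INSIG2 to INSIG1 (left) and of SREBF1 to SREBF2 (right) in each library, as counts per kb of transcript, with normoxia in grey and hypoxia in red. PC3 cells alone lie above 1 on the left and below 0.6 on the right.

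The balance within each gene pair is given as the ratio of counts per kb in a library, a description with no test. INSIG2 to INSIG1 was 1.34 ± 0.0423 (SD, n = 3) in normoxia and 1.65 ± 0.0528 in hypoxia in PC3 cells, whose hypoxic libraries (1.59 to 1.69) lay above the normoxic ones (1.31 to 1.38). In the other lines INSIG1 was the more abundant, with mean ratios in normoxia of 0.367 in A549, 0.22 in HCT-116 and 0.144 in T47D cells, and of 0.346, 0.227 and 0.161 in hypoxia. Both INSIG genes rose together in those 3 lines, so that their ratio moved little. SREBF1 to SREBF2 went from 1.61 ± 0.166 to 0.978 ± 0.0995 in HCT-116 cells, without overlap, while in T47D cells it went the opposite way, from 1.23 ± 0.0370 to 1.47 ± 0.158. A549 cells (2.08 ± 0.265 and 1.91 ± 0.345) and PC3 cells (0.479 ± 0.0840 and 0.369 ± 0.0318) had overlapping ratios.

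The wider pathway was read from gene lists that include the 8 genes. Its counts stand against a background of 17.6% of all genes that rose and 17.8% that fell in A549, 23.3% and 27.0% in HCT-116, 16.6% and 15.7% in PC3 and 6.55% and 6.69% in T47D cells. Of 11 genes from acetyl-CoA to squalene, 2 rose in A549, 5 rose and 1 fell in HCT-116, 3 rose in PC3 and 4 rose in T47D cells, with median log2 fold changes of 0.02, 0.48, 0.00 and 0.49. The A549 count is near the 17.6% of all genes, and the counts that rose in the other 3 lines lie above their background. MVD, mevalonate diphosphate decarboxylase, which makes the substrate of IDI1, rose in all 4 lines, with mean levels going from 122 to 410 CPM in T47D (log2 1.75, SE 0.26), from 46.9 to 138 CPM in HCT-116 (1.56, SE 0.19), from 25.9 to 34.1 CPM in A549 (0.40, SE 0.11) and from 37.3 to 49.1 CPM in PC3 cells (0.40, SE 0.09). MVK, mevalonate kinase, rose in the 4 lines as well, with log2 fold changes from 0.50 in A549 to 1.24 in HCT-116 cells. FDPS, farnesyl diphosphate synthase, rose in HCT-116 (0.56) and T47D cells (0.996), and PMVK, phosphomevalonate kinase, in PC3 cells (0.28). ACAT2, which makes acetoacetyl-CoA, was the gene that fell in HCT-116 cells (log2 -0.61, adjusted p = 0.0214, edgeR).

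Of 13 genes from squalene to cholesterol, 4 rose in A549, 6 rose and 1 fell in HCT-116, 5 rose in PC3 and 7 rose in T47D cells, with medians of 0.21, 0.40, 0.21 and 0.78 on the log2 scale. The counts that rose lie above the share of all genes in each line (17.6% in A549, 23.3% in HCT-116, 16.6% in PC3 and 6.55% in T47D cells). The 1 that fell in HCT-116 cells lies below the 27.0% of all genes that did. LSS, lanosterol synthase, which acts on the product of SQLE, rose in all 4 lines, by 0.92 (SE 0.13) in A549, 1.40 (SE 0.21) in HCT-116, 0.49 (SE 0.10) in PC3 and 1.47 (SE 0.22) in T47D cells. DHCR7, which catalyses a final step to cholesterol, also rose in all 4, from 0.53 in PC3 to 1.74 in HCT-116 cells. CYP51A1, lanosterol demethylase, another enzyme that uses oxygen, rose by 0.30 in PC3 to 1.03 in T47D cells. The gene that fell, in HCT-116 cells, was HSD17B7 (log2 -0.78, adjusted p = 0.0148, edgeR), a ketoreductase of the same branch.

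**Figure D5:**
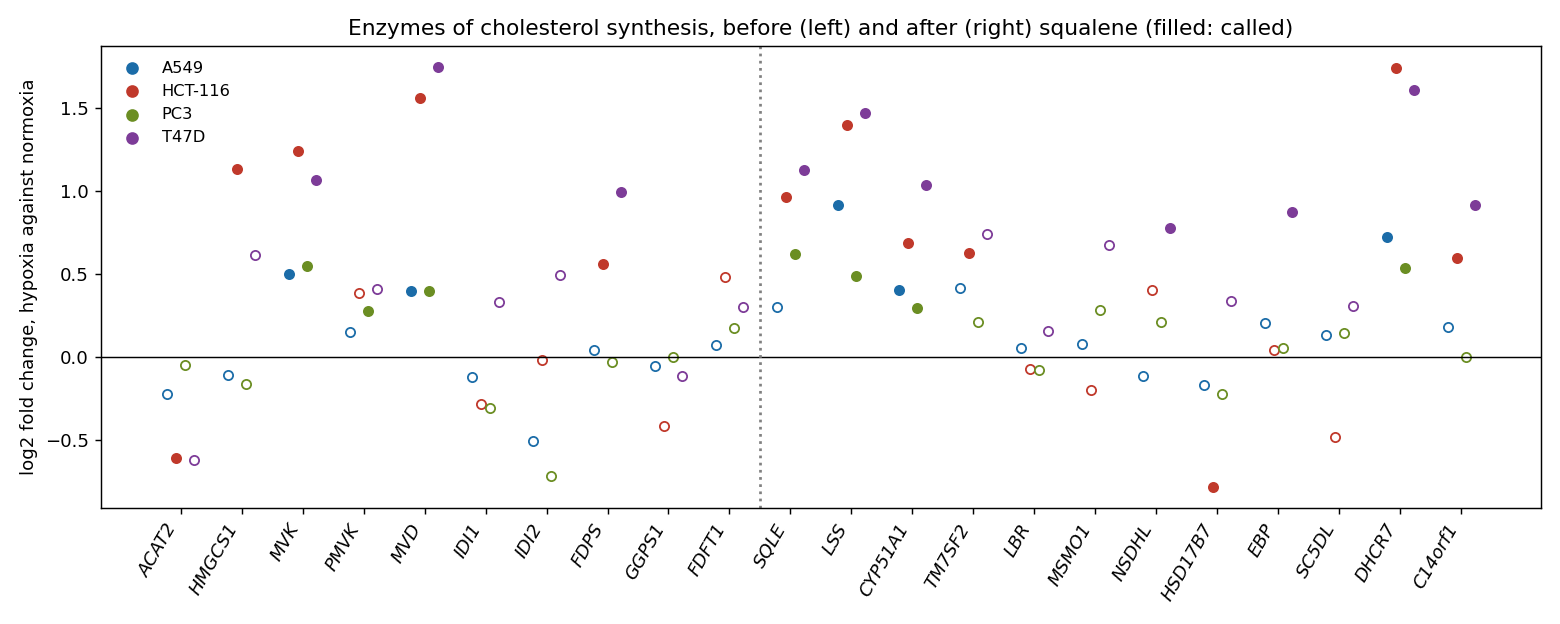
Log2 fold change of hypoxia against normoxia for genes of cholesterol synthesis in pathway order, by line (colour), with filled points where a gene was called. MVK, MVD, LSS, CYP51A1 and DHCR7 are filled and above 0 in all 4 lines, whereas IDI1 has no filled point. Nor do IDI2, GGPS1, FDFT1, LBR, MSMO1 and SC5DL.

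Of 15 genes of SREBP processing and INSIG turnover, 6 rose in A549, 5 rose and 2 fell in HCT-116, 5 rose in PC3 and 2 rose and 1 fell in T47D cells, with medians of 0.22, 0.16, 0.20 and 0.17, and in T47D cells INSIG1 and INSIG2 were the pair that rose. With INSIG1 and INSIG2 included, the counts that rose lie above the background in each line. Without that pair, no gene of the list rose in T47D cells, and the share left in HCT-116 cells is near the 23.3% of all genes that rose. The 2 that fell in HCT-116 cells lie below the 27.0% of all genes, and the 1 in T47D cells is at the 6.69%. In HCT-116 cells MBTPS1, the site-1 protease (0.53), and VCP, a segregase of protein degradation (0.90), rose. In PC3 cells the genes that rose beside INSIG1 and INSIG2 were SCAP (0.38), NPLOC4 (0.31), a cofactor of VCP, and the ubiquitin ligase gene RNF145 (0.57). Those that fell were the ubiquitin ligase gene RNF139 (-0.85) and UFD1L (-0.99), another cofactor of VCP, in HCT-116 cells and the ubiquitin-conjugating enzyme gene UBE2G2 (-0.76) in T47D cells.

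Of SREBF1, SREBF2 and 4 cofactor genes, 2 rose and 1 fell in A549, 4 rose and 1 fell in HCT-116, 1 rose and 1 fell in PC3 and 2 rose in T47D cells, with medians of 0.15, 0.51, 0.07 and 0.16. The PC3 counts, 1 of 6 in each direction, are near the 16.6% and 15.7% of all genes, and the single genes that fell in A549 and HCT-116 cells do not exceed the 17.8% and 27.0% there. SREBF1 and SREBF2 were the pair that rose in A549 and T47D cells, SREBF2 the gene that rose in PC3 cells, and NFYC (0.46) and SP1 (0.56) rose beside them in HCT-116 cells. NFYB, a subunit of the CCAAT-binding factor NF-Y, was the gene that fell in A549 (log2 -0.37, SE 0.10), HCT-116 (-1.34, SE 0.22) and PC3 cells (-0.50, SE 0.11), and in T47D cells it had a value of -0.02 (SE 0.18, adjusted p = 0.963, edgeR).

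Of the genes for sterol uptake and intracellular transport, 7 of 15 rose in A549, 7 of 15 rose and 3 fell in HCT-116, 5 of 15 rose in PC3 and 3 of 14 rose in T47D cells, with medians of 0.39, 0.78, 0.28 and 0.18. The counts that rose lie above the background in each line, whereas the 3 of 15 that fell in HCT-116 cells lie below the 27.0% of all genes that did. NPC1, which exports cholesterol from lysosomes, rose by 0.45 in PC3 to 1.55 in HCT-116 cells. OSBPL2, a sterol transfer protein, rose in A549 (0.52), HCT-116 (0.82) and PC3 cells (0.42), and GRAMD1B, a carrier of sterol from the plasma membrane, in PC3 cells (1.12). The 3 genes that fell in HCT-116 cells were NPC2 (-0.94), LIPA (-0.73) and SOAT1 (-0.55), which handle lysosomal cholesterol and cholesterol esters.

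Of the 8 genes tested for LXR and sterol efflux, 3 rose in A549, 2 in HCT-116, 4 in PC3 and 2 in T47D cells with medians of 0.28, 0.31, 0.48 and 0.55. The HCT-116 count is near the 23.3% of all genes, and the others lie above their background. RXRA, the partner of the sterol sensor LXR, rose in all 4 lines, by 0.59 to 1.19, and NR1H2, which encodes LXR-beta, rose in HCT-116 (0.67), PC3 (0.29) and T47D cells (0.75). The sterol exporter gene ABCA1 rose in A549 (1.07) and PC3 cells (1.22), ABCG1, another exporter, in A549 cells (1.38) and APOE, an apolipoprotein, in PC3 cells (0.83).

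Known targets of the hypoxia-inducible factor HIF give the scale of the response to low oxygen in the same libraries. All 12 of them rose in A549, HCT-116 and T47D cells and 11 in PC3 cells (PDK1 had a log2 fold change of 0.11 there), with medians of 2.10, 2.91, 3.10 and 1.06. CA9, carbonic anhydrase 9, went from 0.321 to 108 CPM in A549, from 0.0920 to 16.4 in HCT-116, from 1.25 to 4.35 in PC3 and from 0 to 37.4 CPM in T47D cells. NDRG1 went from 67.6 to 1677 CPM in A549, 53.6 to 1396 in HCT-116, 312 to 1682 in PC3 and 3.07 to 302 CPM in T47D cells. EGLN3, PFKFB4 and BNIP3 rose in all 4 lines too, BNIP3 by 1.23 in PC3 to 3.60 in T47D cells on the log2 scale.

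Likeness of pattern was measured as Pearson's r over the 24 libraries, of log2 CPM less the mean of its line, among 10881 genes. The points share the oxygen contrast and the libraries, so r is a description. The gene most like INSIG1 was INSIG2 (r = 0.971), followed by ENO2 (0.97), a glycolytic enolase, and GBE1 (0.968), the glycogen branching enzyme. INSIG2 was most like DDIT4 (0.986), ANGPTL4 (0.982) and KDM3A (0.975). SREBF2 was most like SLC25A23 (0.983), USP11 (0.982) and JUP (0.982), and SREBF1 like GAA (0.934), TMEM189 (0.933) and TP53INP2 (0.93). Among the genes most like HMGCS1 were ACLY (0.908), which makes cytosolic acetyl-CoA, and CSNK2A3 (0.9).

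SQLE was most like PPME1 (0.974), the HIF hydroxylase gene EGLN1 (0.963) and ENO1 (0.955), and SCARB1 like CITED2 (0.977), a feedback inhibitor of HIF, CA9 (0.973) and CKB (0.973). IDI1 stood apart, with r between -0.15 (SREBF2) and 0.138 (SREBF1) to the other 7 genes, which had r from 0.655 to 0.971 among themselves. Its closest genes were FAM216A (0.865), HSD17B7 (0.829) of the same pathway and SRI (0.767).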

How the data were processed

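The authors trimmed adapters (Trim Galore 0.3.3), aligned reads to GRCh37 (HISAT2 2.05), kept uniquely placed fragments (Picard 2.0.1) and counted them on UCSC genes (HTSeq 0.5.4p3, intersection-strict mode). Keeping unique fragments lowers genes with near-identical copies. The deposited values are raw counts per gene symbol, 1 table a library, without normalization. The counts came from between 22698584 and 62850747 fragments a library. The submitters' notes also name DESeq2, and the strand setting is not given in the sources used here.

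Cell line, oxygen and replicate number were read from the sample titles. The 8 genes and all lists were chosen with earlier results of these data known. Computed here: edgeR 4.0.16 in R 4.3.3 (filterByExpr, TMM factors, glmQLFit, glmQLFTest) in a fit for each line over all genes, with Benjamini-Hochberg adjustment over all genes tested. SE is the log2 fold change divided by the square root of F. CPM used TMM factors of the line's 6 libraries, and normoxic levels those of the 12 normoxic libraries, divided by the length of the principal transcript (GENCODE v44lift37, GRCh37). The response was compared between lines as an interaction in a fit of 24 libraries. Named genes of a list were those called in the same direction in at least 3 lines, at most 5 a list. Pattern genes were the 3 with the highest r. Some genes that this rule gives are not reported here. Other genes named from the pathway lists belong to counts of 5 or fewer and were chosen after their values were seen.

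Hypoxic and normoxic libraries share replicate numbers. Across genes, the departures of libraries with a shared number from the means of their groups had r of 0.154, 0.325 and 0.303 in T47D cells, where all pairs exceeded 0.1 and the numbers were taken to pair the libraries, and fell under 0.1 for at least 1 pair in each other line. The main fits did not use this pairing, also in T47D cells, where the paired fit was an alternative, the replicate block. T47D calls described as lost or near the threshold are those of fits without the pairing. Alternatives were RLE factors, library totals, all genes kept, genes with a mean count of 50 or more, an adjusted p under 0.01, a fold change over 1.5, DESeq2 1.42.0, a fit of all 24 libraries, the replicate block and each library left out. The fits were tested on simulated counts with at most 200 genes changed 2-fold. Of these, edgeR recovered 81.8% in A549 (13781 genes), 53.5% in HCT-116 (13514), 84.8% in PC3 (13353) and 38% in T47D cells (13970). For the difference between lines, simulated as a change in T47D cells alone, it recovered 14.2% (15633).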

Additional observations from a re-analysis of the deposited data

Results flagged for a closer look

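The response to hypoxia differed between the 4 lines for 7 of the 8 genes by the interaction test of edgeR, which is what marked them for a closer look: INSIG1 (adjusted p = 0.00103), INSIG2 (0.00613), SREBF1 (0.0375), SREBF2 (0.0044), HMGCS1 (0.0011), SQLE (0.0307) and SCARB1 (0.00225). Of all genes tested, 18.3% passed the same test. SQLE and SREBF1 each missed the threshold without a low-count filter and under library totals alone. With each library left out singly, they missed it in 16 and 15 of the 24 fits. The log2 fold changes ran from 0.56 in PC3 to 2.14 in HCT-116 cells for INSIG1, from 0.86 to 2.22 for INSIG2 and from 0.45 to 1.63 for SREBF2 in the same lines. SREBF1 ran from 0.09 in PC3 to 0.99 in T47D cells, SCARB1 from 0.31 to 1.67 in those lines, SQLE from 0.30 in A549 to 1.13 in T47D cells and HMGCS1 from -0.16 in PC3 to 1.13 in HCT-116 cells. Groups of 3 libraries are too small for a test of single outlying libraries.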

How the results depend on the processing

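Each count of called genes was recomputed under the alternatives named with the methods. The number called higher in PC3 cells was 2 with an adjusted p under 0.01 and 2 with a fold change over 1.5, against 4, and it ranged from 3 to 5 with each library left out. The number called lower in PC3 cells was 1 without normoxia replicate 2 and 0 otherwise (IDI1, range 0 to 1). In T47D cells the number called higher ranged from 3 to 6 with each library left out, at 3 without normoxia replicate 1. The response differed between lines for 5 to 7 genes and the normoxic level for 7 to 8 with each library left out. With the replicate block the numbers called higher were 5, 7, 5 and 6 in A549, HCT-116, PC3 and T47D cells, and the response differed for 7. Over all genes tested and both directions, the block called 5002 of 13897 in A549 and 7684 of 13614 in HCT-116 cells. It called 4587 of 13466 in PC3 and 2766 of 14085 in T47D cells. Without the block, 922 genes were called higher and 942 lower in T47D cells. Among the 8 genes, the block called SCARB1 in PC3 cells and changed no other call. Each line's same-numbered libraries correlated across genes with r of 0.207, 0.089 and 0.083 in A549, 0.288, 0.224 and 0.071 in HCT-116 and 0.081, 0.082 and 0.078 in PC3 cells.

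Of 480 recomputed log2 fold changes, 449 kept their direction and side of the threshold, 21 lost a call, 9 gained one and 1 changed sign: IDI1 in A549 cells, at 0.0052 without hypoxia replicate 2, against -0.12 (range with each library left out, -0.19 to 0.0052). Losses under an adjusted p of 0.01 or a fold change of 1.5 follow from the stricter rule. For the others the cause was not tested. Scaling to library totals moved the median of all genes to -0.13 in A549 and -0.12 in T47D cells. Changes of 2-fold could be missed in each line. In the simulation, recovery was lowest in T47D cells, at 38%, and smaller changes were not simulated. It changed 200 of 13970 genes there, fewer than the 922 called higher and 942 lower in the data. With few genes changed the adjustment of p is stricter, so these shares are not the recovery of the tests reported here.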
